A study of Mus musculus with 8 samples.

Results

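Liver sinusoidal endothelial genes were followed through RNA sequencing of material that is labelled as the stromal vascular fraction of MC38 colorectal tumors. The 10 genes are Stab1, Stab2, Clec4g, Lyve1, Fcgr2b, Oit3, Kdr, Pecam1, Gpr182 and Dnase1l3. They were chosen by name as genes of the sinusoidal endothelium of the liver, not by a filter on their values. Earlier results of these data were known when they were chosen. They are 10 of the 55487 genes in the count table. The study asked what Bmal1, a transcription factor of the circadian clock, does in the host cells of a tumor. MC38 colon cancer cells expressing green fluorescent protein were grown under the skin of Bmal1+/+ mice or of mice labelled Bmal1-/-, in which the knockout affects every host tissue and is not limited to the endothelium. Fluorescent tumor cells were sorted away and RNA of the remaining cells was sequenced, in 4 libraries per genotype. Bmal1 status was the sole labelled difference, no treatment is named for these groups, and neither age, sex nor time of collection is in the labels. Nothing in the labels says whether each library came from 1 animal, so the p-values measure the spread between these libraries, which may be technical.

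Sinusoidal endothelial cells line the blood channels of the liver. They have open pores, no continuous basement membrane and a very high rate of endocytosis, by which they clear hyaluronan, modified proteins and small immune complexes from blood. Scavenger receptors, C-type lectins and an inhibitory Fc receptor carry out this uptake, and the cells send growth factors to neighbouring hepatocytes. Several of these genes are also used elsewhere: Lyve1 and Stab1 are found in lymphatic endothelium and in subsets of macrophages, Fcgr2b in B cells and macrophages, and Pecam1 and Kdr in blood vessels of most organs.

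The libraries held between 14054825 and 18449143 counts, and a count of 3, taken as the detection floor, equals between 0.163 and 0.213 CPM (counts scaled to a common library size), for counting error only. The tissue did not match its label in 2 respects that bear on these genes. Hepatocyte transcripts were abundant: the summed level of 12 hepatocyte genes ranged from 114400 to 125900 CPM under the Bmal1+/+ label and from 76530 to 88390 CPM under the other, whereas 10 fibroblast genes together reached between 104 and 227 CPM over all 8 libraries, and Fap, the defining marker of tumor fibroblasts, was too low to be tested. The targeted gene, Bmal1 itself (symbol Arntl, chr7:113207465-113314126 of GRCm38), went against the label, at 2.71, 0.960, 1.01 and 1.503 CPM in the Bmal1+/+ libraries against 32.7, 32.5, 35.0 and 30.1 CPM in the others (log2 fold change 4.38, standard error (SE) 0.28, adjusted p = 6.4e-06, edgeR's quasi-likelihood test). Both groups are therefore named by their labels throughout, as the libraries labelled Bmal1-/- and the Bmal1+/+ libraries. Neither name is a genotype that these levels bear out. Sex separated the groups in the same way, since Xist, transcribed from the inactive X chromosome of females, was between 844 and 1090 CPM in the Bmal1+/+ libraries and at most 0.749 CPM in the others, so label and sex cannot be told apart in any result here. Cell types cannot be counted in bulk RNA, and fewer cells of a type and less RNA per cell cannot be told apart.

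All 10 sinusoidal genes were expressed in every library, with between 175 and 1610 counts per gene and library, and all 10 passed the filter on low counts. The test called 6 members, which fell in the libraries labelled Bmal1-/- at a Benjamini-Hochberg adjusted p below 0.05 in the quasi-likelihood test of edgeR, and 0 of 10 rose. Those were Fcgr2b, Dnase1l3, Kdr, Lyve1, Pecam1 and Oit3. Their mean levels were between 58.0% (Fcgr2b) and 74.3% (Oit3) of those in Bmal1+/+ libraries, so the falls were moderate, and 0 of 10 members passed the rule of the study, which asks for more than 1 log2 unit of change and an unadjusted p below 0.05. Of the 14353 genes tested, 31.1% were called in either direction, 16.2% lower and 14.9% higher, and 8.71% were lower by that rule. The median log2 fold change of the members was -0.48 against 0.02 over all genes tested. Stab2, a main hyaluronan receptor of these cells, lay at the other end, with a log2 fold change of -0.06 and a 95% confidence interval from -0.34 to 0.22.

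**Figure D1:**
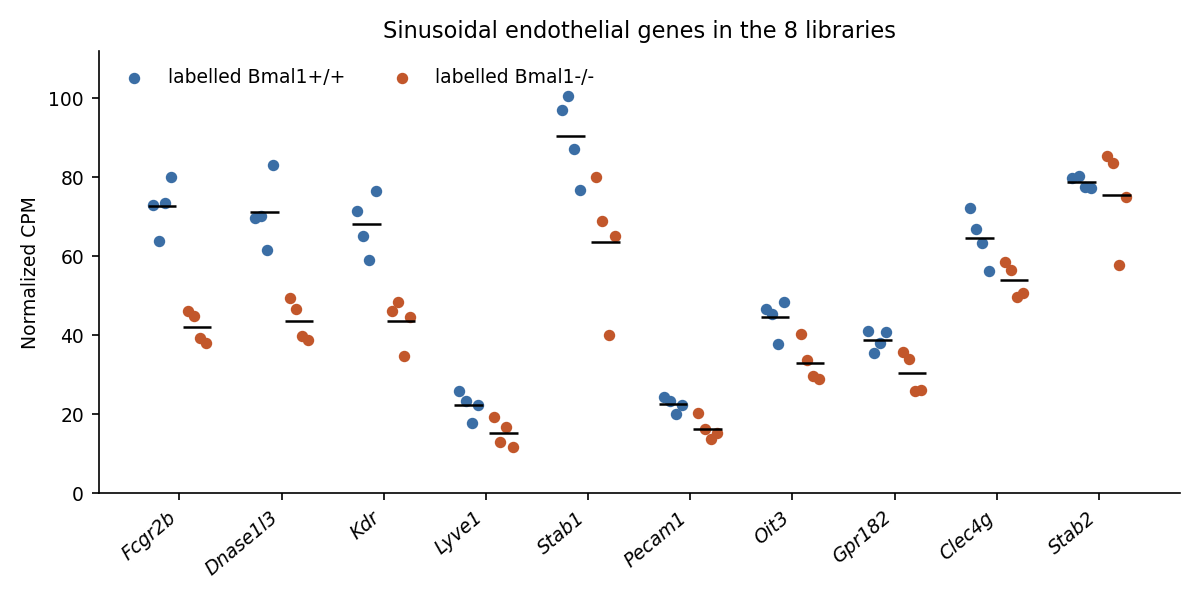
Normalized CPM (vertical axis) of the 10 members, each point 1 library and each black line the mean of 4, for libraries labelled Bmal1+/+ (blue) and Bmal1-/- (orange), in order of fold change. Fcgr2b, Dnase1l3 and Kdr do not overlap between the groups, and Stab2 overlaps most.

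To show the start regions of a gene that fell and of the one with the smallest difference, the sequences upstream of Kdr and Stab2 are given from RefSeq on GRCm38.p6, both on the minus strand, 5′ to 3′, ending where the first annotated exon begins. Capitals mark a match to one of the letters searched. Kdr (chr5:75978459-75978705) and Stab2 (chr10:87008026-87008192) read as follows.
Kdr: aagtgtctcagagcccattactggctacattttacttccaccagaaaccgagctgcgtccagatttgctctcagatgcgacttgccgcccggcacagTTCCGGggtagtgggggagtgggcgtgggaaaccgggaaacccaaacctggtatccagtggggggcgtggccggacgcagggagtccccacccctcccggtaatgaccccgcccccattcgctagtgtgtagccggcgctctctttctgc
Stab2: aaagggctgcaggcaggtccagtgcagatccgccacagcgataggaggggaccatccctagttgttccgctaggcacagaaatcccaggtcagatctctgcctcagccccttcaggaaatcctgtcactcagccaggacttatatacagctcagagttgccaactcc
RefSeq windows of 250 bases before the start were available for 5 of the 10 members, Stab1, Stab2, Clec4g, Fcgr2b and Kdr, and exact matches were sought on both strands in all 250 bases of each, the bases not printed here included. The letters searched were the E-box bound by BMAL1 and CLOCK (CACGTG), the D-box (TTATGTAA), a core of the element of ROR and REV-ERB receptors (TAGGTCA), a first form (AGATAA) and another form (TGATAA) of the site of GATA factors, and the site of ETS factors of endothelium (CCGGAA). The single match was the ETS letters in Kdr, the receptor of vascular endothelial growth factor, on the opposite strand from 153 to 148 bases before the start. Among 32851 promoter windows of the same length, 12.0% held CCGGAA, 6.02% CACGTG, 0.819% TTATGTAA, 2.23% TAGGTCA, 9.99% AGATAA and 7.94% TGATAA. The absence of the other letters speaks only of these windows. The window of Fcgr2b has its first base at position 170976321, within the annotated gene (chr1:170958617-170976547, minus strand). It is therefore not sequence upstream of that annotated gene.

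Among the receptors for immune complexes and lectin ligands, Fcgr2b showed the largest fold change of the 10 genes. Fcgr2b (ENSMUSG00000026656, chr1:170958617-170976547) encodes the inhibitory Fc gamma receptor with which sinusoidal cells take up small immune complexes. It was measured at 72.9, 64.0, 73.5 and 80.2 CPM in the Bmal1+/+ libraries and at 46.3, 44.9, 39.4 and 38.0 CPM in the libraries labelled Bmal1-/-. All 4 libraries labelled Bmal1-/- were below all 4 Bmal1+/+ libraries. The log2 fold change was -0.79 (SE 0.11, adjusted p = 0.00066). Fcgr3, an activating receptor of macrophages and natural killer cells whose outer part is nearly identical to that of Fcgr2b, also fell (log2 fold change -0.86, SE 0.23, adjusted p = 0.017), at a much lower level of 12.0 ± 1.45 against 6.59 ± 2.22 CPM (SD, n = 4 each). How the counting divided reads between the pair is not stated, so the size of the Fcgr2b change is uncertain. Fcgrt, the neonatal Fc receptor that recycles antibodies and albumin, fell as well (log2 fold change -0.48, SE 0.13, adjusted p = 0.021), while Fcer1g, the signalling chain of the activating receptors, did not pass the test (log2 fold change -0.60, SE 0.23, adjusted p = 0.073). Of the 5 other Fc receptor genes, 2 fell and 0 rose, against 16.2% lower and 14.9% higher over all genes tested. The number that fell depended on single libraries, at 1 without Bmal1+/+ replicate 1 or without replicate 1 or 2 labelled Bmal1-/-, 3 without Bmal1+/+ replicate 2, and 5 without replicate 4 labelled Bmal1-/-.

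Clec4g (LSECtin, ENSMUSG00000074491, chr8:3707064-3720651), a C-type lectin that binds glycans and activated T cells, changed little by comparison. Its levels were 72.1, 66.8, 63.5 and 56.4 CPM in the Bmal1+/+ libraries and 58.6, 56.6, 49.8 and 50.7 CPM in the others. The groups overlapped through the first and second libraries labelled Bmal1-/-, and the log2 fold change of -0.26 (SE 0.11, 95% confidence interval -0.50 to -0.02, adjusted p = 0.090) did not pass the test.

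The scavenger receptors of the stabilin family, and Lyve1, all of them receptors linked to hyaluronan or to modified proteins, did not share 1 result. Stab2 (ENSMUSG00000035459, chr10:86841198-87008025) clears hyaluronan and was at 79.9, 80.3, 77.5 and 77.4 CPM in the Bmal1+/+ libraries. In the libraries labelled Bmal1-/- it was at 85.4, 83.7, 57.9 and 75.1 CPM. Of these libraries 2 were above all Bmal1+/+ libraries and 2 were below, and the log2 fold change was -0.06 (SE 0.13, adjusted p = 0.74). Without the third library labelled Bmal1-/- it was 0.03, so even its sign is not settled.

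Stab1 (ENSMUSG00000042286, chr14:31139013-31168641), the homologue of Stab2 that takes up modified lipoproteins and extracellular proteins, was at 96.9, 100.5, 87.3 and 76.7 CPM in the Bmal1+/+ libraries and at 80.1, 69.0, 40.1 and 65.2 CPM in the others. The first library labelled Bmal1-/- was above the fourth Bmal1+/+ library. The log2 fold change of -0.51 (SE 0.19, 95% confidence interval -0.94 to -0.08) did not pass the test, with adjusted p = 0.071, although DESeq2 gave an adjusted p of 0.042. It was the member with the widest spread, and the third library labelled Bmal1-/- held less than any other. Without the first library labelled Bmal1-/- the test was passed, with adjusted p = 0.040.

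Lyve1 (ENSMUSG00000030787, chr7:110850607-110863239), a hyaluronan receptor of sinusoidal and lymphatic endothelium, was at 25.8, 23.3, 17.7 and 22.4 CPM in the Bmal1+/+ libraries and at 19.3, 13.1, 16.7 and 11.9 CPM in those labelled Bmal1-/-. Only the first library labelled Bmal1-/- reached into the Bmal1+/+ range. Lyve1 fell, with a log2 fold change of -0.55 (SE 0.18, adjusted p = 0.039). It had the largest adjusted p of the 6 called members, and leaving out 1 library gave values between -0.68 and -0.44 on the log2 scale.

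Of the receptors and adhesion molecules that all blood vessels use, Kdr and Pecam1 both fell. Kdr (VEGFR2, ENSMUSG00000062960, chr5:75932827-75978458), the main signalling receptor for vascular endothelial growth factor A, was at 71.5, 65.2, 59.0 and 76.6 CPM in the Bmal1+/+ libraries. In the libraries labelled Bmal1-/- it was at 46.1, 48.5, 34.8 and 44.7 CPM, with no overlap. The log2 fold change was -0.64 (SE 0.13, adjusted p = 0.0048). Pecam1 (CD31, ENSMUSG00000020717, chr11:106654217-106750628), a junctional molecule of endothelium that blood cells also carry, was at 24.3, 23.4, 20.02 and 22.3 CPM against 20.2, 16.3, 13.8 and 15.3 CPM. The groups touched through a single library on each side, and the log2 fold change was -0.46 (SE 0.13, adjusted p = 0.027).

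Gpr182 (ENSMUSG00000058396, chr10:127747276-127751732), an atypical receptor that removes chemokines from its surroundings, was at 41.1, 35.5, 38.2 and 40.8 CPM in the Bmal1+/+ libraries and at 35.7, 33.9, 25.8 and 26.2 CPM in the libraries labelled Bmal1-/-. The first library labelled Bmal1-/- lay just above the lowest Bmal1+/+ library. The log2 fold change of -0.35 (SE 0.13, 95% confidence interval -0.65 to -0.06, adjusted p = 0.065) did not pass the test. DESeq2 called it, with an adjusted p of 0.045, as did the fit without the first library labelled Bmal1-/-, with an adjusted p of 0.040.

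Both secreted products among the 10 genes fell. Dnase1l3 (ENSMUSG00000025279, chr14:7964533-7994573), an endonuclease that digests DNA on particles in plasma and in chromatin, was at 69.8, 70.2, 61.6 and 83.0 CPM in the Bmal1+/+ libraries. In the libraries labelled Bmal1-/- it was at 49.5, 46.7, 39.7 and 38.7 CPM, below every Bmal1+/+ library. Its log2 fold change was -0.70 (SE 0.13, adjusted p = 0.0026). Oit3 (ENSMUSG00000009654, chr10:59422958-59441778), a secreted protein with a zona pellucida domain that marks the sinusoidal lining, was at 46.7, 45.3, 37.9 and 48.5 CPM against 40.3, 33.7, 29.6 and 29.0 CPM. The first library labelled Bmal1-/- exceeded the third Bmal1+/+ library, and the log2 fold change was -0.43 (SE 0.13, adjusted p = 0.033).

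**Figure D2:**
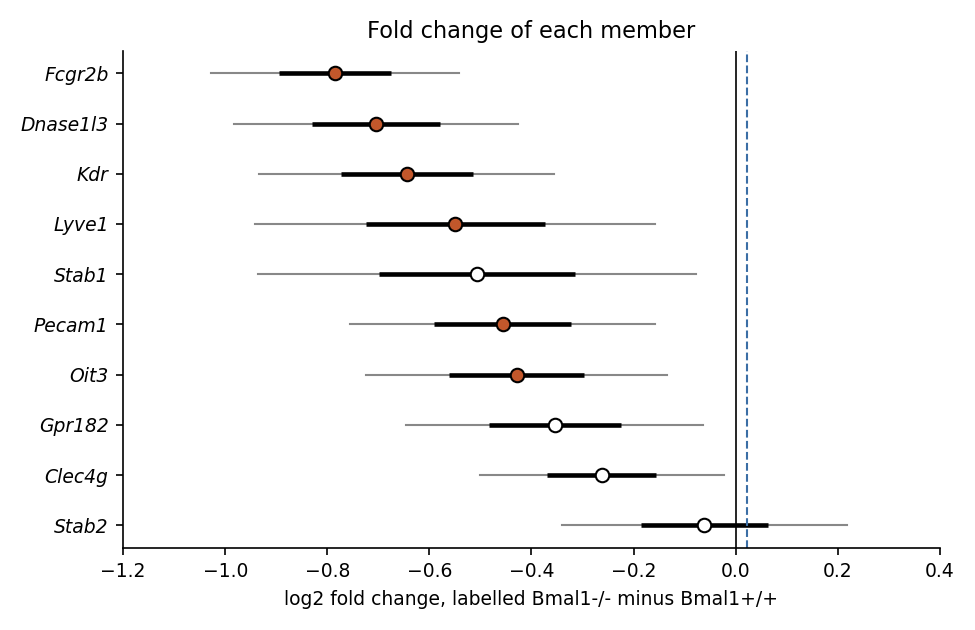
Log2 fold change of each member (horizontal axis, libraries labelled Bmal1-/- minus Bmal1+/+), with its standard error (thick bars) and 95% confidence interval (thin bars). Filled points had an adjusted p below 0.05, open points did not, and the dashed line is the median of all genes tested, 0.02. The interval of Stab2 alone includes 0.

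In 3 of 10 members, Fcgr2b, Dnase1l3 and Kdr, the groups did not overlap and the lower values were in the libraries labelled Bmal1-/-. Over all genes tested, 16.8% were lower without overlap. Within the groups the members tended to deviate in the same libraries, which is described here without a background of other gene sets. The mean deviation of the 10 genes from their group mean, in log2 units, was 0.23, 0.08, -0.21 and -0.11 in the 4 libraries labelled Bmal1-/- and between -0.12 and 0.09 in the Bmal1+/+ libraries. The first library labelled Bmal1-/- had the highest level of its group for 9 of 10 members, Kdr being the exception, and the lowest level of all 8 libraries was in the third for 6 members and in the fourth for 4. The 3 calls with the smallest adjusted p, those of Fcgr2b, Dnase1l3 and Kdr, held without each library in turn. The other 3 depended on single libraries. The number of members called was 3 without Bmal1+/+ replicate 1 or 2 and without replicate 2 or 4 labelled Bmal1-/-, it was 4 without replicate 3 and 8 without replicate 1 labelled Bmal1-/-, and it was 6 and 5 without Bmal1+/+ replicates 3 and 4.

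Pecam1 and Oit3 followed the mean deviation of the members most closely over the 8 libraries (Pearson r of 0.958 and 0.921 after the group means were removed), and Lyve1 least (0.515). The members are part of that mean, which raises their r. Among 11091 other genes with a mean of at least 50 counts, those most like the members by the same measure were Lama4, an endothelial laminin chain (r 0.969), Brf2, a factor of RNA polymerase III (0.964), the kinase Frk (0.960), the kinase Dyrk1a (0.955) and the kinase Fyn (0.953). Lama4 fell (log2 fold change -1.27, SE 0.27, adjusted p = 0.0060), as did Frk and Fyn, whereas Brf2 and Dyrk1a did not pass the test (log2 fold changes 0.33 and 0.20), so likeness within the groups was not likeness between them. These correlations are descriptions over 8 libraries that share one normalization.

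Levels can be set between genes only per length, for which the deposited FPKM values (fragment counts scaled to gene length and library total) were used. The length taken for each gene is not stated, and the order depends on it. In the Bmal1+/+ libraries Clec4g was highest, at 16.7 ± 1.89 FPKM (SD, n = 4), followed by Oit3 at 14.8 ± 1.42, Dnase1l3 at 13.4 ± 1.49, Gpr182 at 9.73 ± 0.758 and Fcgr2b at 9.55 ± 0.917 FPKM. Stab2 at 7.67 ± 0.205, Kdr at 6.98 ± 0.738, Lyve1 at 6.51 ± 0.987, Stab1 at 5.58 ± 0.673 and Pecam1 at 2.48 ± 0.202 FPKM came after them. The order had gaps below Dnase1l3, below Fcgr2b and above Pecam1, and the other neighbours overlapped in range. In the libraries labelled Bmal1-/- the order was the same but for Stab2, at 7.50 ± 1.35 FPKM, which stood ahead of Fcgr2b at 5.65 ± 0.667 FPKM. In that group Pecam1 alone, at 1.85 ± 0.339 FPKM, stood clear of its neighbour in the order.

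The next comparison asked how the members stood beside transcripts that all endothelium shares. The shared endothelial list held 25 genes, none of them a member. Of the 24 that were tested, 14 fell and 1 rose, with a median log2 fold change of -0.55, close to the median of -0.48 of the sinusoidal members. Without single libraries, 10 to 13 fell and 0 to 1 rose. The sum of the list ranged from 521 to 604 CPM in the Bmal1+/+ libraries and from 378 to 485 CPM in the others. Ptprb, a phosphatase that restrains the receptor Tie2, fell (log2 fold change -0.56, SE 0.18, adjusted p = 0.037), as did Eng, a coreceptor for BMP9 (log2 fold change -0.42, SE 0.09, adjusted p = 0.0061). S1pr1, the receptor for sphingosine 1-phosphate, rose instead (log2 fold change 0.54, SE 0.15, adjusted p = 0.019), a call that ended without Bmal1+/+ replicate 2 or 3 or replicate 2 labelled Bmal1-/-. Cdh5, the cadherin of endothelial junctions, was named after its values were seen and fell by 0.74 on the log2 scale (SE 0.15, adjusted p = 0.0050).

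As a share of that summed endothelial level, the members parted into 3 kinds, described here without a test. The sum weighs each gene by its CPM, and its tested genes had log2 fold changes from -2.04 to 0.54. A lower share therefore does not mean a fall beyond each shared endothelial gene. Stab2 was the single member with a higher share in every library labelled Bmal1-/-, at 17.6%, 18.7%, 15.3% and 18.3% of the sum against 13.2%, 13.8%, 14.9% and 13.9%. Fcgr2b had a lower share in every library labelled Bmal1-/-, at 9.55%, 10.02%, 10.4% and 9.28% against 12.1%, 11.02%, 14.1% and 14.4%. Dnase1l3 (9.46% to 10.5% against 11.6% to 14.9%) and Kdr (9.20% to 10.9% against 11.2% to 13.7%) were lower without overlap too. The shares of the other 6 members overlapped, and those of Pecam1, Oit3 and Gpr182 had means within 5% of each other, at 3.80% against 3.98%, 7.68% against 7.88% and 7.04% against 6.89%. Over all genes tested, 7.01% had a lower and 37.8% a higher level without overlap on this scale. These percentages move with the fall of the endothelial sum itself. The counts of 1 higher and 3 lower members are therefore not read as a result against them.

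**Figure D3:**
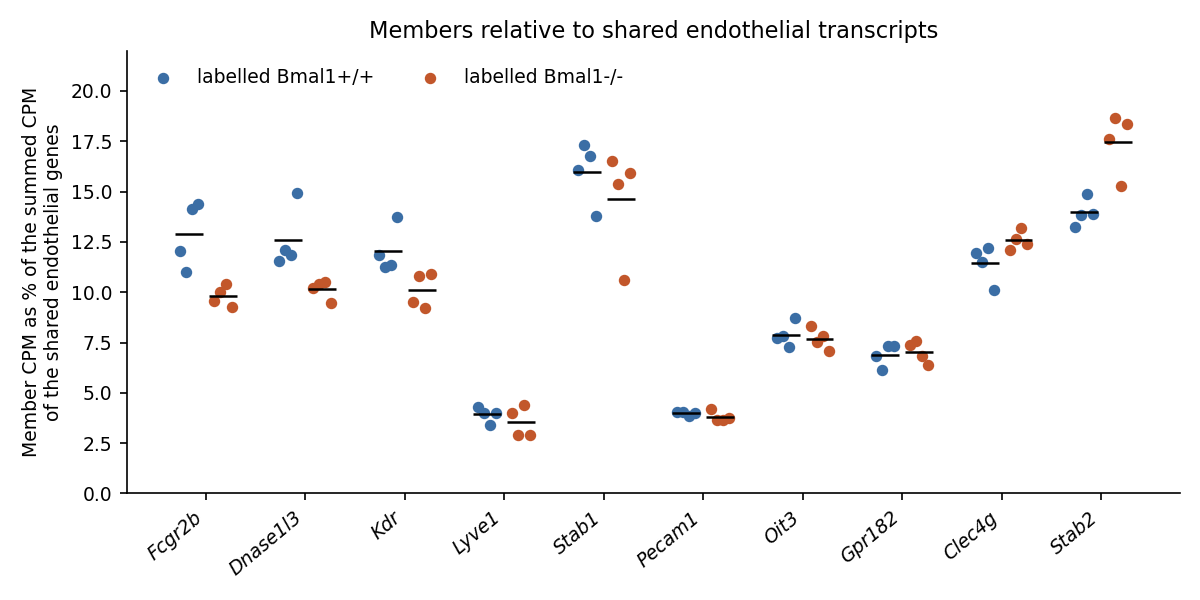
Each member's CPM as a percentage of the summed CPM of 25 shared endothelial genes in the same library (vertical axis), each point 1 library and each line the mean of 4 libraries labelled Bmal1+/+ (blue) or Bmal1-/- (orange). Fcgr2b, Dnase1l3 and Kdr lie lower, Stab2 higher and the other 6 members overlap.

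Ligands and receptors of the VEGF family, in which Kdr acts, were mostly lower. Of 9 genes tested, Kdr included, 6 fell and 0 rose, with a median log2 fold change of -0.66. Vegfa, the ligand of Kdr that hepatocytes make in liver, fell from a range of 121 to 154 CPM to one of 73.4 to 99.4 CPM (log2 fold change -0.66, SE 0.13, adjusted p = 0.0040). Flt4, the receptor for VEGF-C, fell by 0.69 on the log2 scale (SE 0.21, adjusted p = 0.032), and the coreceptor Nrp1 did not pass the test (log2 fold change -0.25, SE 0.17, adjusted p = 0.30). Named after their values were seen, the decoy receptor Flt1 fell by 0.96 on the log2 scale (SE 0.22, adjusted p = 0.0082), and the coreceptor Nrp2 was at 59.3, 42.3, 35.7 and 37.0 CPM against 10.6, 10.1, 8.47 and 10.5 CPM. The change of Nrp2, a log2 fold change of -2.14 (SE 0.18, adjusted p = 3.0e-05), lay far beyond that of Kdr.

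Some transcription factors of sinusoidal cells held larger differences than any member. Of 13 listed genes 12 were tested, 6 fell and 0 rose, with a median log2 fold change of -0.78, and Lmo3 had a count of 0 in every library. Klf2, which shear stress induces in endothelium, was at 32.9, 36.3, 44.3 and 35.97 CPM in the Bmal1+/+ libraries and at 10.4, 9.70, 9.54 and 7.33 CPM in those labelled Bmal1-/-. The groups were far apart, with a log2 fold change of -2.01 (SE 0.14, adjusted p = 1.4e-05). Maf, which supports sinusoidal identity, fell by 0.86 on the log2 scale (SE 0.13, adjusted p = 0.00093). Nr2f2, a venous regulator, had a log2 fold change of -0.04 (SE 0.15, 95% confidence interval -0.38 to 0.30, adjusted p = 0.86).

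Named after their values were seen, Klf4, a relative of Klf2, was at 8.37, 11.8, 10.2 and 7.57 CPM against 0.999, 0.970, 0.712 and 1.08 CPM, and Bcl6b, an endothelial repressor, at 7.28, 5.63, 4.30 and 4.34 CPM against 0.687, 0.554, 0.569 and 0.746 CPM. Both changes were larger than that of any member (log2 fold changes of -3.32, SE 0.22, adjusted p = 8.6e-06, and -3.06, SE 0.26, adjusted p = 3.6e-05). Gata4, the regulator that sets sinusoidal against continuous endothelium, had a log2 fold change of -0.04 (SE 0.22, 95% confidence interval -0.54 to 0.47, adjusted p = 0.92), and like Nr2f2 it changed sign when single libraries were left out. Klf2 and Klf4 are also expressed by other cells of the liver, so their part in the endothelium was not tested.

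**Figure D4:**
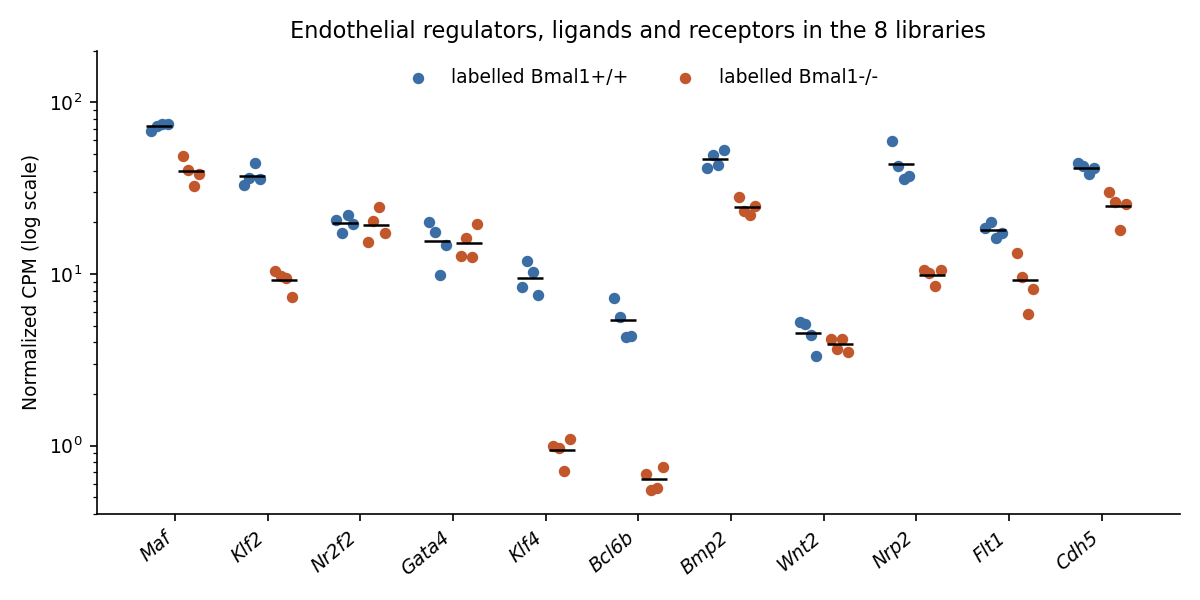
Normalized CPM (vertical axis, log scale) of transcription factors, ligands and receptors of endothelium, each point 1 library and each line the mean of 4 libraries labelled Bmal1+/+ (blue) or Bmal1-/- (orange). Klf2, Klf4, Bcl6b and Nrp2 lie far apart between the groups, and Nr2f2, Gata4 and Wnt2 overlap.

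Among 11 growth factors and hormones linked to the sinusoid, 9 were tested, 7 fell and 0 rose, with a median log2 fold change of -0.67. Bmp2, with which sinusoidal cells instruct hepatocytes to make hepcidin, was at 41.5, 49.7, 43.1 and 52.6 CPM against 28.2, 23.4, 21.9 and 24.9 CPM (log2 fold change -0.92, SE 0.12, adjusted p = 0.00046). Cxcl12, a chemokine that retains leukocytes, fell by 1.10 on the log2 scale (SE 0.15, adjusted p = 0.00059), and Igf1, which hepatocytes make in far larger amounts, fell by 0.65 (SE 0.19, adjusted p = 0.028).

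Falls and rises were found in the lists of both ends of the sinusoid. Of 11 genes of the periportal sinusoid and portal vessels, 5 fell and 2 rose (median log2 fold change -0.52). Of 10 genes of the pericentral sinusoid and central vein, 3 fell and 2 rose (median -0.21). Among all genes tested, 16.2% fell and 14.9% rose, so 2 rises in lists of this size are not read as a result of either zone. On the portal side Ltbp4, which binds latent TGF-beta, fell by 1.35 on the log2 scale (SE 0.19, adjusted p = 0.00064), Clu, a chaperone that hepatocytes also make, rose by 0.73 (SE 0.20, adjusted p = 0.019), and Ntn4, a netrin of the basement membrane, did not pass the test (log2 fold change -0.06, adjusted p = 0.84). On the central side 3 genes fell, namely Kit, a receptor of stem cell factor (log2 fold change -1.10, SE 0.15, adjusted p = 0.00069), Thbd, the thrombin receptor thrombomodulin (-1.79, SE 0.36, adjusted p = 0.0050), and Ptgs1, a cyclooxygenase (-0.89, SE 0.27, adjusted p = 0.029). Wnt2, the central ligand named after its values were seen, had a log2 fold change of -0.22 (SE 0.19, adjusted p = 0.41). The 2 rises became 1 on the portal side without Bmal1+/+ replicate 4, and on the central side without Bmal1+/+ replicate 2 or 3 or replicate 4 labelled Bmal1-/-. The difference between the 2 zones was not tested.

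Genes listed for scavenging and endocytosis, the work of Stab1, Stab2 and Fcgr2b, did not move one way. Of 23 genes other than the members, 7 fell and 6 rose, against 16.2% lower and 14.9% higher over all genes tested. The median log2 fold change of the list was 0.19. The 3 with the highest mean CPM over the 8 libraries, which is not an order of levels per length, were the receptor Lrp1 and the lysosomal membrane proteins Lamp2 and Lamp1, and they did not pass the test (log2 fold changes 0.25, 0.34 and 0.18, adjusted p = 0.53, 0.12 and 0.26). Named after their values were seen, the fatty acid and lipoprotein receptor Cd36 fell by 2.17 on the log2 scale (SE 0.29, adjusted p = 0.00055) and the HDL receptor Scarb1, which hepatocytes also express, rose by 1.21 (SE 0.12, adjusted p = 0.00011). Cd36 and Scarb1 held the lowest and the highest log2 fold change of the list. The list is not limited to genes of sinusoidal cells, so its mixed result does not describe sinusoidal uptake alone. Which cells carried each change was not tested.

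**Figure D5:**
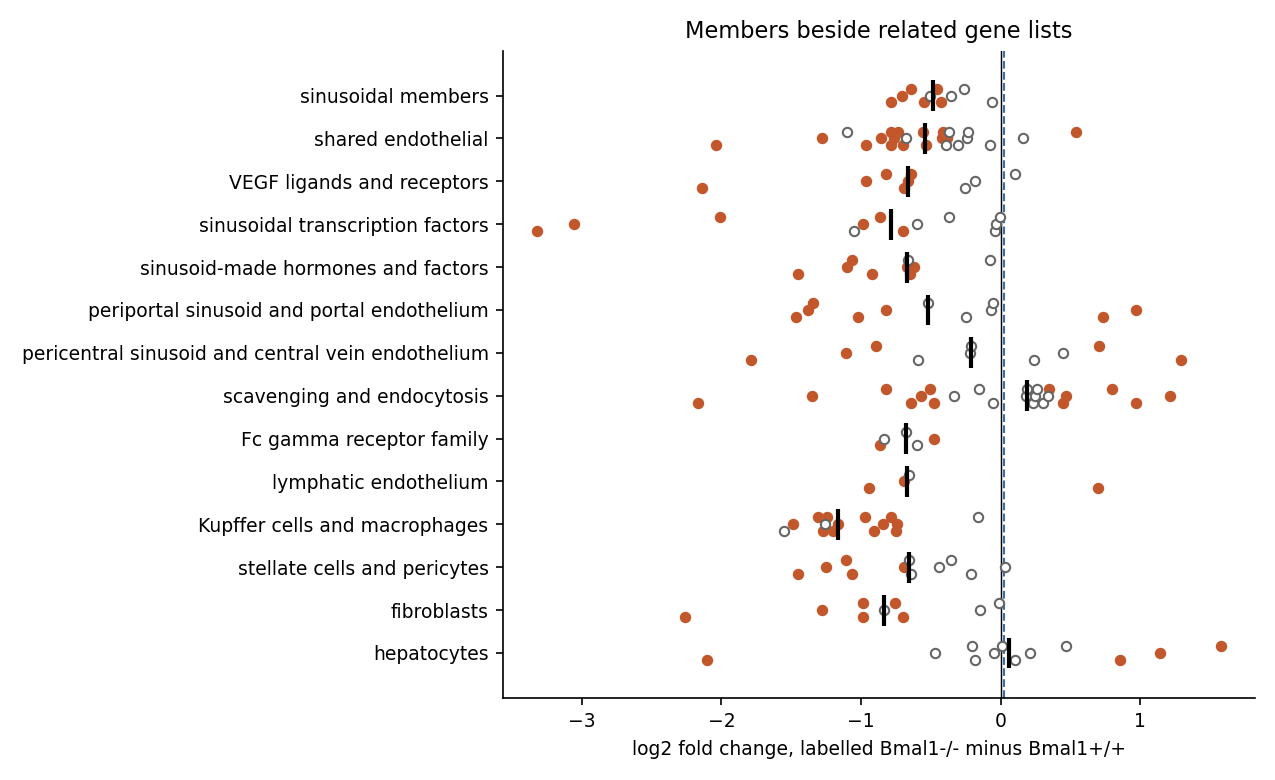
Log2 fold change (horizontal axis, libraries labelled Bmal1-/- minus Bmal1+/+) of each tested gene of 14 lists, with filled points at an adjusted p below 0.05 and black bars at each list's median. The dashed line is the median of all genes tested, 0.02. The members have a median of -0.48, the shared endothelial genes -0.55, Kupffer cell genes -1.17 and hepatocyte genes 0.06.

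Markers of macrophages, which use some of the members, moved as well. Of 15 Kupffer cell and macrophage genes, 12 fell and 0 rose (median log2 fold change -1.17), and 8 to 13 fell when single libraries were left out. Their summed level ranged from 1166 to 1302 CPM in the Bmal1+/+ libraries and from 443 to 849 CPM in the others. Clec4f, a lectin of Kupffer cells, fell (log2 fold change -0.79, SE 0.18, adjusted p = 0.0086), as did Cd5l, a secreted protein of macrophages (-0.91, SE 0.25, adjusted p = 0.022). In the fourth library labelled Bmal1-/- this sum was the highest of its group. Lyve1, Fcgr2b, Oit3 and Dnase1l3 were at their lowest there, and the other 6 members, Stab1 among them, in the third. The part of macrophages in the changes of Stab1, Lyve1 and Fcgr2b was not tested.

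Of the 7 lymphatic genes 4 could be tested, and 2 fell and 1 rose. Prox1, the lymphatic regulator that hepatocytes also express, rose by 0.70 (SE 0.16, adjusted p = 0.010), Reln, a secreted glycoprotein that stellate cells also make, did not pass the test (log2 fold change -0.65, SE 0.24, adjusted p = 0.065), and Pdpn, the lymphatic marker that hepatocytes lack, had a count of 0 in every library. The number of lymphatic genes that fell was 1 without Bmal1+/+ replicate 1 or 2 or replicate 2 labelled Bmal1-/-, and 3 without replicate 1 labelled Bmal1-/-. Of the 7 B cell genes 5 could be tested, 1 fell and 0 rose, and their summed level was between 11.4 and 16.5 CPM against 5.89 and 13.0 CPM, and 2 fell without Bmal1+/+ replicate 3 or replicate 4 labelled Bmal1-/-. Over all genes tested, 16.2% fell and 14.9% rose, so the counts of lymphatic and B cell genes are not read as a result. Summed levels of platelet genes, with Treml1 at a count of 0 in those labelled Bmal1-/-, were between 4.06 and 5.90 CPM over all libraries. T and natural killer cell genes summed to between 1.90 and 7.57 CPM and dendritic cell genes to between 10.1 and 16.2 CPM.

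Stellate cell and pericyte genes fell in 5 of 11 tested (median log2 fold change -0.65), with Cspg4 at a count of 0 in all libraries labelled Bmal1-/-, and fibroblast genes in 6 of 9 (median -0.84). Neutrophil genes summed to at most 10.7 CPM in the Bmal1+/+ libraries, with Ly6g at 0, and to 45.5 CPM in the fourth library labelled Bmal1-/-. Hepatocyte genes had a median log2 fold change of 0.06, with 1 lower and 3 higher of 12, although Alb alone, named after its values were seen, fell by 2.10 on the log2 scale (SE 0.20, adjusted p = 6.8e-05). Of the 6 epithelial and MC38 tumor genes tested, 2 fell and 1 rose, against 16.2% and 14.9% over all genes tested, and Cldn4 had a count of 0 in every Bmal1+/+ library. Only 1 of these tumor genes fell when any single library other than replicate 4 labelled Bmal1-/- was left out, and 2 hepatocyte genes were lower without that replicate 4.

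Neighbouring genes set a limit on single values. Stab1 overlaps Nt5dc2 and Gpr182 overlaps Zbtb39, both protein-coding genes on the opposite strand, and Stab2, Clec4g and Fcgr2b overlap antisense transcripts or pseudogenes. The strand setting of the counting is not stated, so reads of these pairs cannot be told apart. Dnase1l3, Kdr, Lyve1, Oit3 and Pecam1 overlap no other annotated gene.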

How the data were processed

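RNA sequencing of 4 Bmal1+/+ and 4 Bmal1-/- samples was grouped by the genotype labels, and 1 sample whose title carries a number outside 1 to 4 is replicate 4 by its description. Per the paper's methods the authors aligned read pairs to build GRCm38 by HISAT, while the submitters' processing notes name CASAVA 1.8 and TopHat2 2.0.6, and counted fragments per gene with StringTie. The deposited counts are whole numbers without normalization. The FPKM values deposited by the authors scale them to gene length and library total, and were used for levels between genes and in 1 alternative. Whether strand was used in counting is not stated.

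Normalized CPM, log2 fold changes and adjusted p came from edgeR 4.0.16 in R 4.3.3 (filterByExpr, TMM, quasi-likelihood test, prior count 0.125), fitted to 14353 of 55487 genes, with the standard error as log2 fold change over the root of F, and Benjamini-Hochberg adjustment over all of them. The common dispersion was 0.0506. The fit was tested on simulated data, where it called 51% of genes changed by 1 log2 unit and 95.9% of those changed by 2. Of its calls there, 5.26% were false. A member without a call is thus not shown to be unchanged. Library pairs within a group differed by a chi-square per degree of freedom of at least 19.97, so none was a duplicate. Symbols and positions are from GENCODE on GRCm38 (99.38% of identifiers matched).

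The members and lists were chosen with earlier results of these data known. Named genes are the 10 members, Arntl, the 3 other genes with the highest mean CPM of each endothelial, Fc receptor and macrophage list, the 5 genes most like the members, and markers of other cell types at a count of 0. Others are said to be named after their values were seen. Values of 2 genes under this rule are left out. Alternatives were DESeq2 1.42.0, limma-voom and limma on log2(FPKM + 0.1) with limma 3.58.1, the likelihood ratio test, other normalizations and filters, a prior count of 2, the replicate number as a block, and leaving out each library. Figures used Python 3.11.15 and matplotlib 3.10.9.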

Additional observations from a re-analysis of the deposited data

Results flagged for a closer look

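Among 138 groups of 4 libraries examined, 8 held a library that lay apart from the other 3 by a gap above Dixon's critical value, which chance gives in about 1 of 20 such groups. Of the members' shares of the endothelial sum, Pecam1 was 3.85% in Bmal1+/+ replicate 3 against 4.01% to 4.03% in the others, and Dnase1l3 was 14.9% in Bmal1+/+ replicate 4 against 11.6% to 12.1%. Thbd was at 18.7 CPM in Bmal1+/+ replicate 2 against 9.15 to 10.8 CPM. In replicate 3 labelled Bmal1-/-, the lysosomal gene Lamp2 was at 1120.0 CPM against 850 to 893 CPM, and the lymphatic genes summed to 191 CPM against 260 to 273 CPM. In replicate 4 labelled Bmal1-/-, Cd5l was at 150 CPM against 64.5 to 74.0 CPM, Clec4f at 143 CPM against 85.9 to 90.6 CPM and the neutrophil genes summed to 45.5 CPM against 2.92 to 3.87 CPM. No member's own CPM lay apart in this way.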

How the results depend on the processing

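Fcgr2b, Dnase1l3 and Kdr were called lower in each of the 18 alternatives, and 0 members were called higher in any. DESeq2 added calls for Stab1 (log2 fold change -0.52, adjusted p = 0.042) and Gpr182 (-0.37, adjusted p = 0.045). Scaling by library size only ended the calls of Lyve1 (-0.52, adjusted p = 0.052) and Oit3 (-0.40, adjusted p = 0.052). With no filter on low counts, which raised the genes tested to 28004, 3 members were called instead of 6, and Lyve1 (-0.54, adjusted p = 0.066), Oit3 (-0.42, adjusted p = 0.060) and Pecam1 (-0.45, adjusted p = 0.050) were lost. Limma on log2 FPKM lost Lyve1 (-0.53, adjusted p = 0.051) and Pecam1 (-0.42, adjusted p = 0.051), and gave Gata4 a log2 fold change of 0.0158. Leaving out single libraries gave 3 to 8 called members, with log2 fold changes of -0.63 to -0.35 for Stab1, -0.12 to 0.0342 for Stab2, -0.33 to -0.21 for Clec4g, -0.68 to -0.44 for Lyve1, -0.53 to -0.37 for Oit3, -0.57 to -0.40 for Pecam1 and -0.44 to -0.29 for Gpr182, and Stab2 was above 0 only without replicate 3 labelled Bmal1-/-. Gata4 ranged from -0.20 to 0.11, Nr2f2 from -0.19 to 0.0592, Ntn4 from -0.18 to 0.0567 and Lrp1 from -0.0866 to 0.40. The causes were not tested. The replicate numbers do not pair the samples, since same-numbered libraries had correlations of deviations between -0.06 and 0.06 and libraries share no stated source, and with the replicate block 6 members were called, while Clu lost its call. Of 28 other named genes with a call, 8 (Cd5l, Clu, Fcgrt, Flt4, Igf1, Ptgs1, Ptprb and S1pr1) lost it in at least 1 alternative, and of 10 without a call 3 (Fcer1g, Nrp1 and Reln) gained one. Depth limits the members little, since each had 175 counts or more in every library.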
